A study of Mus musculus with 2 samples.

Results

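The genes described here are those of interleukin-2 (IL-2), its receptor and the STAT5 pathway that the receptor drives. They are Il2, the receptor chain genes Il2ra, Il2rb and Il2rg, the kinase genes Jak1 and Jak3, the transcription factor genes Stat5a and Stat5b, and the feedback genes Cish and Socs1. They were chosen by name, and all 10 were found among the 24013 genes of the deposited table. RNA was sequenced from CD8 T cells of C57BL/6 mice, in 1 library of genotype DGKζ-/- (animals 6 weeks old) and 1 library of wild-type genotype (7 weeks old). In both, naive CD8 T cells had been purified from spleen with a kit and kept for 24 hours on immobilised antibodies against CD3 and CD28, so both groups were stimulated and neither is a resting baseline. DGKζ (diacylglycerol kinase ζ) removes diacylglycerol, the second messenger by which the T cell receptor reaches Ras and protein kinase C. The labels name neither the deleted exons nor the number or sex of the animals. With 1 library per genotype no difference can be tested, and the intervals below are 95% counting intervals that leave out the variation between animals and cultures.

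T cells make IL-2 after stimulation and also respond to it. IL-2 binds a receptor of 3 chains, of which the α chain (CD25, from Il2ra) raises the affinity, while the β chain (from Il2rb) and the common γ chain (from Il2rg) carry the signal through the bound kinases JAK1 and JAK3. These phosphorylate STAT5A and STAT5B, which enter the nucleus and induce, among others, Il2ra itself and the inhibitor genes Cish and Socs1. IL-2 drives the division and effector differentiation of CD8 T cells.

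A stretch of promoter sequence is shown for the gene with the largest difference, Il2, and a shorter one for Cish, a classical STAT5 target. Both come from RefSeq on build GRCm38.p6, while the submitters' notes name the older build mm9. The Il2 stretch is the 250 bases before the transcription start, on the minus strand of chr3:37125955-37126204, and capitals mark the core bound by NFAT, GGAAA, on either strand.

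Il2: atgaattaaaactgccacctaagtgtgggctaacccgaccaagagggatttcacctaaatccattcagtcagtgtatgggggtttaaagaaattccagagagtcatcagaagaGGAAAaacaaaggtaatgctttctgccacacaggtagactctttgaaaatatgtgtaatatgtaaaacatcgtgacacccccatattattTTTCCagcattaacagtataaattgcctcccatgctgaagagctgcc

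The core is present at 2 places, starting 137 and 47 bases before the transcription start. A match to these letters is common, since 55.6% of 32851 mouse promoter stretches of the same length hold at least 1. In the Cish sequence, which lies across the start of the gene on the plus strand of chr9:107296654-107296683, capitals mark letters matching the STAT motif TTCNNNGAA.

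Cish: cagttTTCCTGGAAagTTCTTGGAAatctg

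The Cish stretch holds 2 copies of the STAT motif, whereas 8.30% of all promoter windows from 250 bases before to 50 bases after a start hold any. Promoter sequence was matched for 9 of the 10 genes, all except Il2rb. Among these 9, Cish alone held the STAT motif in that window. No promoter of the 9 held the AP-1 motif TGANTCA or the NF-κB type motif GGAAANTCC, searched on both strands, which says only that these letters are absent from the window.

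Values are normalized counts, that is reads of a gene divided by the size factor of the library. The DGKζ-deficient library held 13464169 reads over 1 transcript row per gene and the wild-type library 37211969, so a single read was worth 1.71 normalized counts in the DGKζ-deficient and 0.583 in the wild-type library. All 10 genes were well above the detection limit, the smallest number of reads being 278, for Il2 in the wild-type library. The difference between genotypes is given as the log2 ratio, log2((DGKζ-deficient + 10)/(wild type + 10)), and a gene is called at least 2-fold different when it averages 50 normalized counts or more and this ratio reaches 1 or -1. By that rule 2.60% of the 10518 genes compared were called, 1.30% higher and 1.29% lower in the DGKζ-deficient library. Dgkz itself stood at 2591 normalized counts in the DGKζ-deficient library and 6714 in the wild-type library. The libraries also differed in Xist, the RNA that coats an inactive X chromosome, with 9206 normalized counts in the DGKζ-deficient and 14.0 in the wild-type library, and in 4 Y-linked genes, which had 0 reads in the DGKζ-deficient library. Sex, age and genotype therefore cannot be told apart for any value below.

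**Figure D1:**
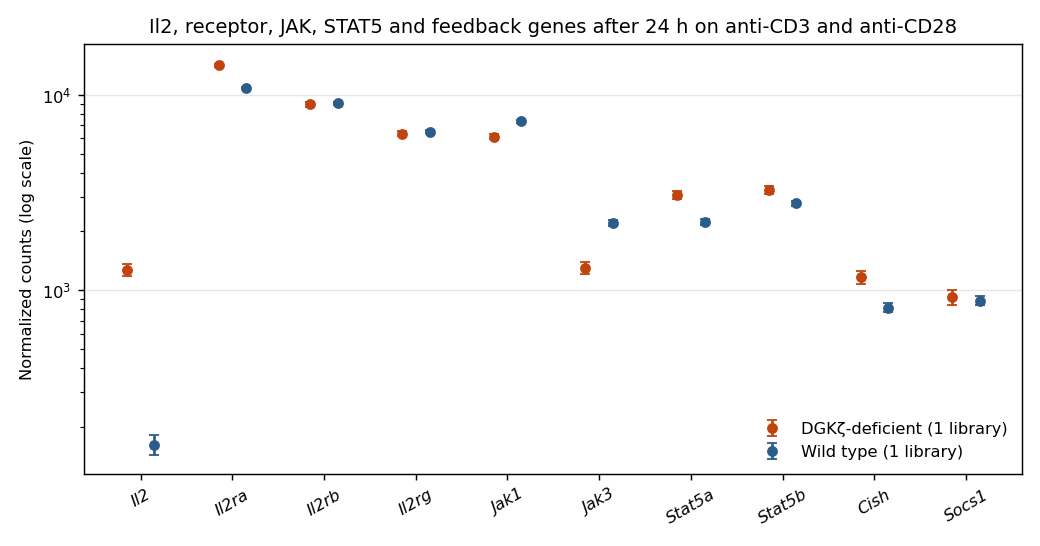
Normalized counts (log scale) of the 10 genes in the DGKζ-deficient (red) and wild-type (blue) library, 1 library each, with bars for the 95% Poisson counting interval. Il2 stands at 1274 in the DGKζ-deficient library and 162 in the wild-type library, while the points of the other 9 genes lie close together.

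Of the 10 genes, Il2 alone was called, and it was higher in the DGKζ-deficient library. The ligand gene Il2 was read 743 times in the DGKζ-deficient library and 278 times in the wild-type library, which is 1274 and 162 normalized counts. It was 7.86-fold higher (6.84 to 9.05), a log2 ratio of 2.90. Only 6 of the 10518 compared genes had a higher log2 ratio. The genes next to it in that order were Tagap1 (3.25) and Trib3 (2.94) above and Slc7a3 (2.85) and Chac1 (2.74) below, a likeness that rests on 2 libraries. Tagap1 has a close paralog, Trib3 encodes a pseudokinase induced by stress, Slc7a3 a transporter of cationic amino acids and Chac1 an enzyme that degrades glutathione.

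The other 9 genes were not called, and their log2 ratios ran between -0.76 for Jak3 and 0.51 for Cish. With the deposited size factors, the counting interval of the fold left out 1 for 7 of the 10 genes, Il2 included. For Il2rb, Il2rg and Socs1 it did not. Of the 10 genes, 3 lay between the quartiles of all compared genes (-0.14 to 0.22), and 2, Il2 and Jak3, lay outside their 5th to 95th percentiles (-0.59 to 0.55). The median log2 ratio was 0.14 over the 10 genes and 0.055 over all genes compared.

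**Figure D2:**
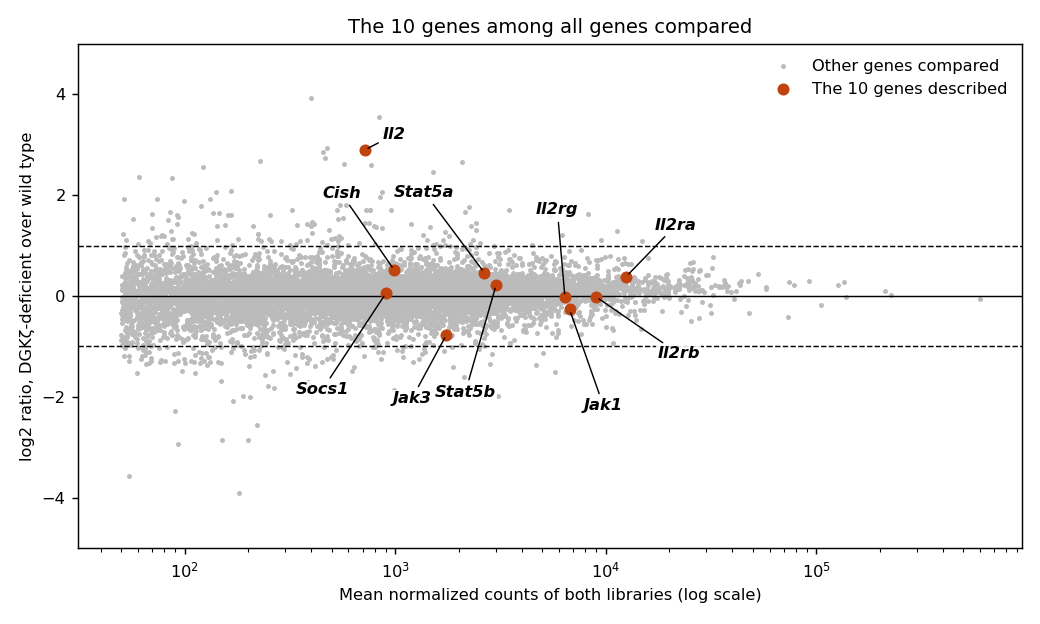
Log2 ratio of the DGKζ-deficient over the wild-type library against the mean normalized counts of both (log scale), for the 10 genes (red, named) and all other genes compared (grey), 1 library per genotype. Dashed lines mark 1 and -1, and 6 genes lie outside the axis limits of -5 and 5. Il2 stands alone above the upper line among the 10 genes, and Jak3 is the lowest of them at -0.76.

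The receptor chains differed from each other. Il2ra, the gene of CD25, stood at 14174 normalized counts in the DGKζ-deficient library and 10846 in the wild-type library. That is 1.31-fold higher (1.27 to 1.34), a log2 ratio of 0.39 that exceeds those of 90.1% of genes. Il2rb, the gene of the β chain that IL-2 and IL-15 receptors share, stood at 8954 and 9053 normalized counts in the DGKζ-deficient and wild-type libraries. Il2rg, the gene of the γ chain common to a family of cytokine receptors, stood at 6342 in the DGKζ-deficient and 6469 in the wild-type library. The fold of Il2rb was 0.989 (0.958 to 1.02) and that of Il2rg 0.980 (0.944 to 1.02). With the deposited size factors neither difference thus exceeded counting error. That depends on the scaling: with both libraries scaled to equal totals the log2 ratios were -0.11 for Il2rb and -0.12 for Il2rg. Il2rg lies on the X chromosome, and its level was nearly equal in libraries that differed in Xist.

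Ratios between genes within a library do not depend on how the libraries were scaled. Reads of Il2ra outnumbered those of Il2rb 1.58-fold in the DGKζ-deficient library and 1.20-fold in the wild-type library, so the ratio was 1.32 times as large (1.27 to 1.38) in the DGKζ-deficient library. Against Il2rg, the corresponding read ratios of Il2ra were 2.23 and 1.68 in the DGKζ-deficient and wild-type libraries, 1.33 times as large (1.27 to 1.39). Il2rb and Il2rg kept a ratio of 1.41 in the DGKζ-deficient library and 1.40 in the wild-type library, a quotient of 1.01 (0.961 to 1.06). The shift among receptor chains was thus seen for the α chain gene and was within counting error for the other pair.

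The receptor's kinases were both lower in the DGKζ-deficient library, Jak3 more than Jak1. Jak3, whose product binds the γ chain, was read at 1297 normalized counts in the DGKζ-deficient library and 2210 in the wild-type library. It was 1.70-fold lower (1.58 to 1.85), with a log2 ratio of -0.76, below which lay 2.87% of all compared genes. Its other transcript row gave -0.77. Jak1, whose product binds the β chain and many other cytokine receptors, stood at 6119 and 7351 normalized counts in the DGKζ-deficient and wild-type libraries, 1.20-fold lower (1.16 to 1.25). The ratio of Jak1 to Jak3 reads was 4.72 in the DGKζ-deficient library and 3.33 in the wild-type library, 1.42 times as large (1.30 to 1.55).

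The STAT5 genes were both higher. Stat5a stood at 3077 normalized counts in the DGKζ-deficient library and 2236 in the wild-type library, 1.38-fold higher (1.30 to 1.46), a log2 ratio of 0.46. Stat5b, its neighbour on chromosome 11, stood at 3252 and 2784 in the DGKζ-deficient and wild-type libraries, 1.17-fold higher (1.11 to 1.23). Each gene has a second transcript row with nearly the same log2 ratio, 0.46 for Stat5a and 0.23 for Stat5b. The 2 genes are close copies: 15.8% of the stretches of 50 bases in the Stat5a transcript also occur in Stat5b, so reads from those stretches could have been counted in either gene. The ratio of Stat5a to Stat5b reads was 0.946 in the DGKζ-deficient library and 0.803 in the wild-type library, 1.18 times as large (1.09 to 1.27).

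The 2 feedback genes differed from each other. Cish, which encodes an inhibitor that STAT5 induces, stood at 1166 normalized counts in the DGKζ-deficient library and 813 in the wild-type library. It was 1.43-fold higher (1.31 to 1.57), with a log2 ratio of 0.51 above those of 94.1% of genes. Socs1, an inhibitor of JAK kinases that interferons and gamma chain cytokines induce, stood at 921 and 886 normalized counts in the DGKζ-deficient and wild-type libraries, with a fold of 1.04 (0.941 to 1.15). The ratio of Cish to Socs1 reads was 1.27 in the DGKζ-deficient library and 0.918 in the wild-type library, 1.38 times as large (1.21 to 1.58).

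Levels of different genes can be compared only per transcript length, taken here from the GENCODE transcripts matched by RefSeq accession. In the DGKζ-deficient library, normalized counts per kilobase ran from 3798 for Il2rg through 3213 for Il2ra, 2135 for Il2rb, 1247 for Jak1 and 1114 for Il2 down to 791 for Stat5a, 624 for Stat5b, 409 for Cish, 323 for Jak3 and 317 for Socs1. In the wild-type library the order was 3874 for Il2rg, 2458 for Il2ra, 2159 for Il2rb, 1498 for Jak1, 575 for Stat5a, 550 for Jak3, 534 for Stat5b, 305 for Socs1, 285 for Cish and 142 for Il2. Il2 was thus the fifth of the 10 in the DGKζ-deficient library and the last in the wild-type library, while the first 4 places were the same. Counting intervals of neighbours overlapped for Jak3 and Socs1 in the DGKζ-deficient library, and in the wild-type library for Stat5a and Jak3, for Jak3 and Stat5b, and for Socs1 and Cish.

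**Figure D3:**
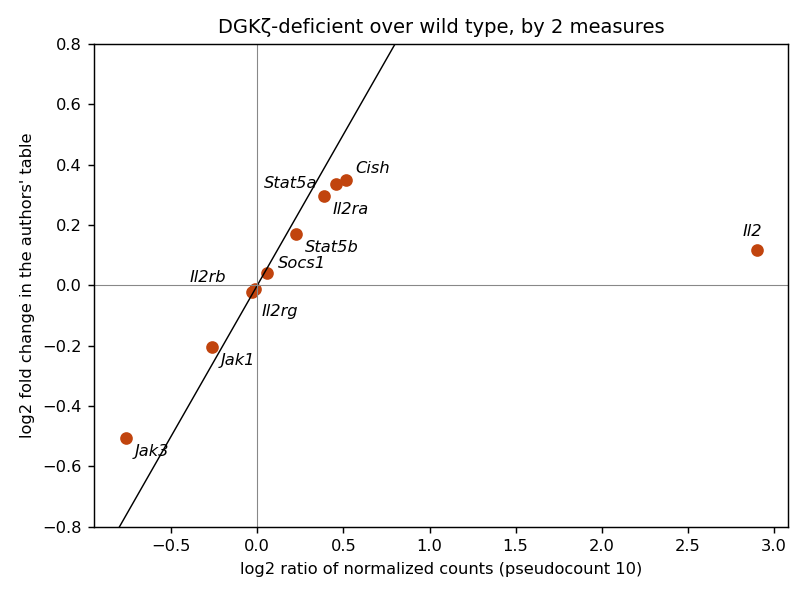
Log2 fold change in the authors' deposited table (vertical) against the log2 ratio of normalized counts (horizontal), DGKζ-deficient over wild type, for the 10 genes. The line marks equal values. Jak3 is lowest on both axes, and Il2, at 2.90 on the horizontal axis, has 0.12 on the vertical axis.

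The authors' deposited table ranks the 10 genes differently. It gives Il2 a log2 fold change of 0.12 and a p-value of 0.33, although the normalized counts deposited beside it differ by the fold given above. In the authors' deposited table Jak3 has the largest log2 fold change of the 10 in size, -0.51, and the smallest p-value, 0.0469. Next by p-value in the authors' deposited table are Stat5a (0.16), Cish (0.17) and Il2ra (0.19). These p-values, too, compare 1 library with 1, and 1.07% of the rows with a p-value had one under 0.05. No log2 value there lies outside -0.66 to 0.67. Dgkz, at -1.37 by the log2 ratio of normalized counts, has -0.20 there, so the 2 measures differ in scale. The smallest adjusted p-value over the 30433 rows with a p-value is 0.999, so no gene passes an adjusted threshold in the authors' deposited table.

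Genes listed as induced by IL-2 or STAT5 in T cells were higher more often than lower, though the lists used from here on were drawn up from general knowledge with earlier results of these libraries in view. Of 22 listed genes 21 were compared, of which 16 had a log2 ratio above 0 and 5 below, and 5 were called higher, 0 lower and 16 were not called, beside 1.30% of all genes called higher. The median log2 ratio was 0.21, against 0.055 for all genes, so most of all genes compared also had a ratio above 0. The split by sign depends on the scaling. With both libraries scaled to equal totals the medians were 0.12 for the list and -0.033 for all genes. Pim1, a survival kinase induced by STAT5, stood at 5987 normalized counts in the DGKζ-deficient library and 2973 in the wild-type library, 2.01-fold higher (1.93 to 2.10). Osm, the gene of the cytokine oncostatin M, was 2.13-fold higher (1.85 to 2.44), and Nfil3, a transcription factor gene, 2.21-fold higher (1.84 to 2.66). Lta, the gene of lymphotoxin α, and Tnfrsf4, the gene of the costimulatory receptor OX40, had log2 ratios of 1.04 and 1.39. Pim1, Osm, Lta and Nfil3 all lie close to the threshold: with both libraries scaled to equal totals 2 genes of this list were called, and with ratios recentred on the median of all genes 3.

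The 16 genes of that list that were not called spread from -0.59 to 0.95. Eomes, a transcription factor gene of effector and memory cells, stood highest of them at 0.95, and Il12rb2, an IL-12 receptor gene, stood at 0.51. The cell cycle regulators Myc and Ccnd2 had log2 ratios of -0.0038 and 0.051. The survival gene Bcl2 stood at -0.59, whereas its relative Bcl2l1, which encodes BCL-xL, stood at 0.71. Gzmb, encoding granzyme B, had a log2 ratio of 0.77 and Prf1, encoding perforin, one of -0.34. Tbx21, Id2 and Pim2 lay between 0.048 and 0.095.

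Genes listed as repressed by IL-2 or STAT5 were mostly lower in the DGKζ-deficient library. All 9 were compared, and 8 had a log2 ratio below 0, with a median of -0.57. Klf2, a transcription factor of quiescent T cells, was the 1 called gene, at 58.3 normalized counts in the DGKζ-deficient library and 280 in the wild-type library, 4.81-fold lower (3.39 to 7.03). The number called lower was 2 at equal totals or a pseudocount of 1, and 0 at a minimum mean of 200 normalized counts, which Klf2 does not reach. Over all genes 1.29% were called lower. Bcl6, a transcriptional repressor that opposes effector differentiation, had a log2 ratio of -0.94, Tcf7 one of -0.50 and Il7r, the IL-7 receptor gene, one of -0.28. The exception was the homing receptor gene Ccr7 at 0.55. B cell markers, described below, were lower in the same library, and B cells also express Cxcr5 and Bcl6, so fewer cells of a type and less RNA per cell cannot be told apart. The part of B cells in these values was not tested.

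**Figure D4:**
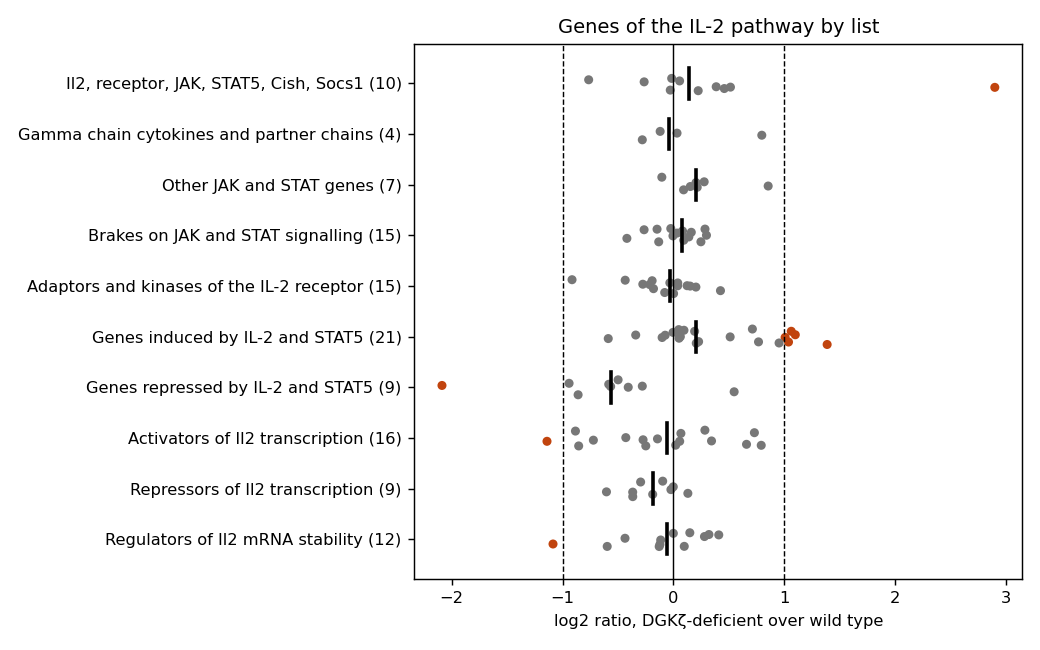
Log2 ratio of the DGKζ-deficient over the wild-type library for each compared gene (points) of the 10 genes described and of 9 other lists, with the number of genes in brackets. Black bars mark medians, dashed lines mark 1 and -1, and called genes are red. Called genes are seen in 5 of the rows, with 5 of them among genes induced by IL-2 and STAT5.

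Genes that act at the Il2 gene went in both directions. Of 16 compared activators of Il2 transcription, 8 had a log2 ratio above 0 and 8 below, with 1 called lower and 0 higher, beside 1.29% of all genes called lower. The called gene was Nfatc1, a calcium-dependent factor that binds the core shown in the Il2 promoter, at 1797 normalized counts in the DGKζ-deficient library and 3975 in the wild-type library, 2.21-fold lower (2.07 to 2.36). Nfatc2, the other main NFAT gene of T cells, had a log2 ratio of -0.88, and the coactivator gene Crebbp one of -0.72. Among AP-1 and NF-κB genes, Jun, Junb and Nfkb2 stood at 0.73, 0.66 and 0.79, Rel at 0.28 and Fosl2 at -0.85. Il2 was thus higher in the library in which Nfatc1 and Nfatc2 were lower and Nfatc3 was nearly equal.

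Of 9 compared genes listed as repressors of Il2, 8 had a log2 ratio below 0, with a median of -0.19 against 0.055 for all genes. Of these 9, 0 were called, which is near the background of 2.60% of all genes. Ets1, whose part at Il2 is less settled than the list name implies, had the lowest, -0.60. Runx1 and Ikzf1, the gene of the zinc finger protein Ikaros, both stood at -0.37, and Zeb1, which binds upstream of Il2, was the 1 gene above 0 at 0.13. Of 12 regulators of mRNA stability, 1 was called lower and 0 higher, again beside 1.29% of all genes called lower. Zfp36l1, a member of the family whose proteins bind AU-rich elements and promote mRNA decay, stood at 1087 normalized counts in the DGKζ-deficient library and 2320 in the wild-type library, 2.13-fold lower (1.96 to 2.32). Its relatives Zfp36 and Zfp36l2 had log2 ratios of -0.60 and -0.44. Zc3h12a, which encodes the RNase Regnase-1, stood at 0.41.

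The other parts of the cytokine pathway held 0 called genes, beside 2.60% of all genes compared, a share so low that 0 in lists of this size is near the background. Of the remaining cytokines that signal through the γ chain, Il4, Il7, Il9, Il15 and Il21 had at most 2 reads each in the DGKζ-deficient library and at most 7 in the wild-type library. Il15ra, the gene of the IL-15 receptor α chain, stood at 640 normalized counts in the DGKζ-deficient library and 364 in the wild-type library, a log2 ratio of 0.80, and Il4ra, Il21r and Il7r lay between -0.28 and 0.032. Of the 7 other JAK and STAT genes, Jak2 had the largest log2 ratio, 0.85, at 5831 and 3220 normalized counts in the DGKζ-deficient and wild-type libraries. Jak2 was therefore higher in the library in which Jak1 and Jak3 were lower. Stat2, Stat3, Stat4 and Stat6 lay between 0.092 for Stat4 and 0.28 for Stat2.

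The 15 other brakes on JAK and STAT signalling lay between -0.42 for Socs5 and 0.30 for Socs2, with a median of 0.076. The SH2 domain phosphatase genes Ptpn6 and Ptpn11 had log2 ratios of -0.13 and 0.093, and Ptpn2, whose product dephosphorylates JAK1, JAK3 and STAT5, one of 0.25. The 15 compared adaptors and kinases of the IL-2 receptor had a median of -0.032. Syk was the lowest at -0.91, with 87.5 normalized counts in the DGKζ-deficient library and 174 in the wild-type library, and Sos1, the gene of a Ras activator, stood at -0.44. Syk is highly expressed by B cells, whose markers were lower in the same library, and their part in its value was not tested.

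Markers of the labelled cell type were abundant. All 8 CD8 T cell markers were compared and 0 were called, near the background of 2.60% of all genes. Their summed levels were 43176 normalized counts in the DGKζ-deficient library and 49542 in the wild-type library. Among them 3 had a log2 ratio above 0 (Cd2 at 0.29, Cd5 at 0.22 and Thy1 at 0.14) and 5 below. Those with the largest difference were Cd3g, at 2603 normalized counts in the DGKζ-deficient and 4767 in the wild-type library, and Cd8a, at 8455 in the DGKζ-deficient and 13090 in the wild-type library. The 10 markers of CD4 and regulatory T cells, which can produce IL-2 or carry much CD25, summed to 1667 in the DGKζ-deficient and 2230 in the wild-type library. Cd4 had 53.2 normalized counts in the DGKζ-deficient and 171 in the wild-type library, and Nrp1 had 220 in the DGKζ-deficient and 500 in the wild-type library. Foxp3, of regulatory T cells, had 321 normalized counts in the DGKζ-deficient and 262 in the wild-type library. Lrrc32, also of regulatory T cells, had 223 in the DGKζ-deficient and 161 in the wild-type library. The markers of this list thus went in both directions. Of the 7 compared, 2 had a log2 ratio above 0 and 5 below. The 10 markers of NK and innate-like T cells, which carry much of the β chain, summed to 782 in the DGKζ-deficient and 1033 in the wild-type library, most of it from Klrk1 with 633 in the DGKζ-deficient and 587 in the wild-type library. Ncr1, Klrb1c, Klra1 and Klrg1 had 0 reads in the DGKζ-deficient library and 7 to 9 in the deeper wild-type library. The counting intervals of these 4 folds all include 1. That of Zbtb16, with 1 read in the DGKζ-deficient and 24 in the wild-type library, left out 1 (fold 0.123, 0.00298 to 0.752). Klrd1 had 134 and 395 normalized counts in the DGKζ-deficient and wild-type libraries. The 12 B cell markers summed to 2314 in the DGKζ-deficient and 3183 in the wild-type library. H2-Eb1 had 117 normalized counts in the DGKζ-deficient library, against 269 in the wild-type library. The 11 myeloid and dendritic cell markers in the table summed to 348 in the DGKζ-deficient and 316 in the wild-type library, although 9 of the 11 were lower in the DGKζ-deficient library. The 2 higher ones were Mpeg1, with 185 normalized counts in the DGKζ-deficient and 127 in the wild-type library, and Xcr1, with 66.9 in the DGKζ-deficient and 19.2 in the wild-type library. Cd68 had 70.3 in the DGKζ-deficient and 93.9 in the wild-type library. The median log2 ratio of this list was 0.072 over its 2 compared genes and -0.38 without a minimum mean. What these cells contributed to the 10 genes was not tested.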

How the data were processed

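The tools STAR (version 2) and DESeq and the genome build mm9 are named, without their roles, in the submitters' processing notes. A counting program is not given in the sources used here. For each RefSeq transcript the authors deposited normalized counts, a signal of 0 or above. Beside them the authors deposited, for each transcript, a log2 fold change, a score not used here, and p-values with and without adjustment. Dividing each library's values by its lowest nonzero value gave whole numbers for 100% of them (relative tolerance 0.0001), so whole reads were recovered, with size factors of 0.583 (DGKζ-deficient) and 1.71 (wild type). In 1 row of 33018 a shifted value was found, and it was left out. Where a gene had several rows, that of the highest mean was used, as reads appear to be counted in each. The library kit does not mark strand. In GENCODE M21, exons overlap Stat3 for Stat5a (72 bases), Insl3 for Jak3 (404), Gm20489 for Il2rg (728) and Gm17041 for Cish (479), and reads there cannot be assigned to either gene.

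Log2 ratios used a pseudocount of 10, which makes differences of low genes look smaller. Folds were computed without it, with exact Clopper-Pearson 95% intervals on the share of a gene's reads from the DGKζ-deficient library. Poisson intervals were used for single levels and a log-normal approximation for ratios of ratios. All of these cover counting error only, as each genotype has 1 library. PCR copies were not told apart by molecular identifiers, so the intervals may be too narrow even for counting error. With 1 library per genotype there are no residual degrees of freedom, so no count test was run. The members, lists and rules were chosen with earlier results of these data known. The naming rule takes the 10 genes, Dgkz, the called genes of each list (where none is called, the 2 with the largest log2 ratio in size), and the 4 neighbours of Il2. Some genes it names are not reported here. Genes named beyond it were chosen after their values were seen. Python 3.11.15, scipy 1.17.1, pandas 2.3.3 and matplotlib 3.10.9 were used.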

Additional observations from a re-analysis of the deposited data

How the results depend on the processing

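Il2 was the 1 called gene of the 10 under all 8 alternatives tried, and its log2 ratio lay between 2.64 and 2.97 over the 6 that apply to a single gene (of these, the 2 on the choice of transcript row leave a gene with 1 row, such as Il2, as it was). Over the 6, Jak3 lay between -0.85 and -0.75, Cish between 0.43 and 0.52, Stat5a between 0.37 and 0.46, Il2ra between 0.30 and 0.39 and Socs1 between -0.033 and 0.056. Il2rb lay between -0.11 and -0.016, Il2rg between -0.12 and -0.028, Jak1 between -0.35 and -0.26 and Stat5b between 0.13 and 0.23. Scaling both libraries to equal totals shifted the median of all genes by -0.088. It also moved the median of the 10 genes to 0.050, the number of the other 14 lists with a median above 0 to 2 from 4, and the calls over all genes to 115 higher and 179 lower (137 and 136 with the deposited size factors). Recentring gave 119 higher and 158 lower. In all, 273 genes were called. That count was 163 with a pseudocount of 50, 551 without a minimum mean and 164 at a minimum of 200. Of genes induced by IL-2 and STAT5, 5 were called, but 2 at equal totals or a pseudocount of 50. No paired analysis was possible because each genotype has 1 library. The DGKζ-deficient library, with 13464169 reads over 1 transcript row per gene, gave the fewer reads for each of the 10 genes except Il2 and so limits their intervals. For Il2 the wild-type library was the limit, with 278 reads against 743.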
